A study of Drosophila melanogaster with 4 samples.

Results

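The genes described here encode the soluble machinery of protein synthesis in the larval fat body of Drosophila melanogaster: the aminoacyl-tRNA synthetases and the initiation and elongation factors of translation. They were chosen by name, as every entry whose symbol began with Aats-, eIF, Ef1 or EF2, which gave 53 of the 13990 symbols in the tables: 21 synthetases, 28 genes named eIF and 4 named Ef1. No symbol began with EF2, because the elongation factor eEF2 is listed there as Ef2b. Its values are given beside those of the members. The fat body is the organ in which the larva stores nutrients and makes most of its circulating proteins. RNA came from yw larvae of the 3rd instar at 110 h after egg laying, and each sample pooled 10 fat bodies. Both groups carried the dMef2-Gal4 driver, which acts in muscle and whose activity in the fat body was not measured here. In the Con group it drove UAS-white-RNAi, against an eye pigment gene, and in the ND-75-i group UAS-ND-75-RNAi, against a core subunit of mitochondrial complex I. Each group had 2 samples. The comparison asks how perturbing complex I in muscle is reflected in the RNA of another organ.

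Protein synthesis starts when initiation factors bring the small ribosomal subunit and the initiator tRNA to a capped mRNA. The cap is bound by eIF4E, the scaffold eIF4G joins it to the helicase eIF4A, eIF2 carries the initiator tRNA, and the large complex eIF3 bridges mRNA and ribosome. The elongation factor eEF1A then delivers each aminoacyl-tRNA, the eEF1B subunits recharge eEF1A with GTP, and eEF2 moves the ribosome along. Synthetases attach each amino acid to its tRNA. Cytosolic and mitochondrial enzymes are mostly encoded by separate nuclear genes, since mitochondria translate the respiratory chain proteins of their own genome. In a fat body that is secreting storage proteins, translation is one of the main activities of the cell.

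Values are FPKM, the fragments of a transcript divided by its length and by the mapped fragments of the library, so levels can be compared between genes per length. Pairs of FPKM are given as replicate 1 and replicate 2 of a group. Differences are log2 changes on the log2(FPKM + 1) scale, ND-75-i minus Con, which understates changes of genes with low FPKM, and a gene was called when its limma p-value, adjusted over all 10023 genes tested by the Benjamini-Hochberg method, was below 0.05. The deposited bounds of the FPKM correspond to 9573000 to 11877000 fragments per library. The median gene stood 0.25 higher on this scale in ND-75-i. Rescaling the libraries by their median ratios brought the median of all genes to -0.01, so changes of the members are read against that shift. ND-75, listed as ND75, was at 46.6 and 43.9 FPKM in the Con libraries and 94.8 and 79.0 FPKM in the ND-75-i libraries, and w, the control target, at 2.48 and 5.37 against 2.11 and 6.96 FPKM; neither measures the knockdown in muscle. Of 10 fat body markers, 7 had a valid estimate in every library, and their summed FPKM was 48386 and 54850 in the Con libraries and 11137 and 21480 in the ND-75-i libraries. Most of the Con sum came from Fbp1 and Fbp2, the latter at 29136 and 33073 against 6380 and 16337 FPKM. Of the 7, 3 had a log2 change above 0 and 4 below, with a median of -0.12. By limma 1 of them was called higher and 0 lower. Among markers without a valid estimate in every library, the storage protein genes Lsp1beta and Lsp1gamma in all 4 libraries, and Lsp2 in the Con libraries, are listed at 0 as failed estimates. In the ND-75-i libraries Lsp2 is listed at 16637 and 25411 FPKM. Rfabg, the lipophorin precursor, was at 2237 to 3098 FPKM over the 4 libraries. Fbp1, the storage protein receptor, went from 14971 and 17897 FPKM to 22.5 and 393 FPKM without passing the test (adjusted p = 0.0594). The storage protein gene Lsp1alpha, which is not on that marker list, fell from 28004 and 25267 FPKM to 2893 and 4506 FPKM (a log2 change of -2.88, adjusted p = 0.022). Cg25C, a collagen IV chain, rose from 182 and 143 FPKM to 362 and 310 FPKM (a log2 change of 1.05, adjusted p = 0.0432). The part of these marker differences in the results on the members was not tested. Markers of other tissues were present and differed between libraries. The summed FPKM of 8 salivary gland genes was 84267 and 39531 in the Con libraries and 28780 and 19947 in the ND-75-i libraries. Of these 8, 7 had a log2 change below 0, and limma called 0 lower. The other, ng1, rose from 143 and 35.6 FPKM to 1595 and 1456 FPKM (a log2 change of 4.39, adjusted p = 0.0446). For 9 haemocyte genes the sum was 99.1 and 234 against 66.7 and 86.1, and for 7 gut genes 247 and 1953 against 483 and 1400. For 13 germline genes it was 72.2 and 67.3 against 79.6 and 70.8, mostly from tud, at 53.8 and 51.9 against 66.4 and 64.7. Of the 6 germline genes tested, 2, tud among them, had a log2 change above 0 and 4 below. Of these 4, orb was at 8.98 and 6.87 against 4.95 and 1.15 FPKM, and bgcn passed the filter on low values through the Con libraries only. In bulk tissue, fewer cells of a type and less RNA per cell cannot be told apart.

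All 53 members had a valid estimate in every library and all were tested. Of these, 5 rose in ND-75-i: the second eEF1A gene Ef1alpha100E, the helicase gene eIF-4a, the eIF3 subunit genes eIF3-S8 and eIF-3p40, and eIF6. That is 9.43% of the members, close to the 7.76% of all genes tested that were called higher. By limma 0 members were called lower, against 1.09% of all genes, and 23 were higher and 1 lower before adjustment (unadjusted p under 0.05), against 29.4% and 7.70% of all genes. The 1 lower was eIF4E-6, which passed the filter on low values through the Con libraries only. After median-ratio rescaling Ef1alpha100E alone was called, against 3.47% of all genes, and it alone after quantile normalization, against 6.04%. With 1 library left out the fits had 1 residual degree of freedom and called 0 to 2 of all 10023 genes higher, so the 0 members called there say nothing about the members.

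Levels of the groups did not overlap for most members. Both ND-75-i libraries lay above both Con libraries for 41 members (77.4%), against 53.7% of all genes, and below them for 7 (13.2%), against 21.7%. The deposited bounds of both ND-75-i libraries lay above those of both Con libraries for 25 members (47.2%), against 26.0% of all genes. Bounds are narrower for abundant genes, and the median FPKM in Con was 30.5 for the members and 8.05 for all genes tested. The median log2 change of the members was 0.30, from -1.72 to 1.69, beside 0.25 for all genes, and 0.02 after median-ratio rescaling. Together the members took 1.67% and 1.74% of the summed FPKM in Con and 2.09% in each ND-75-i library.

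**Figure D1:**
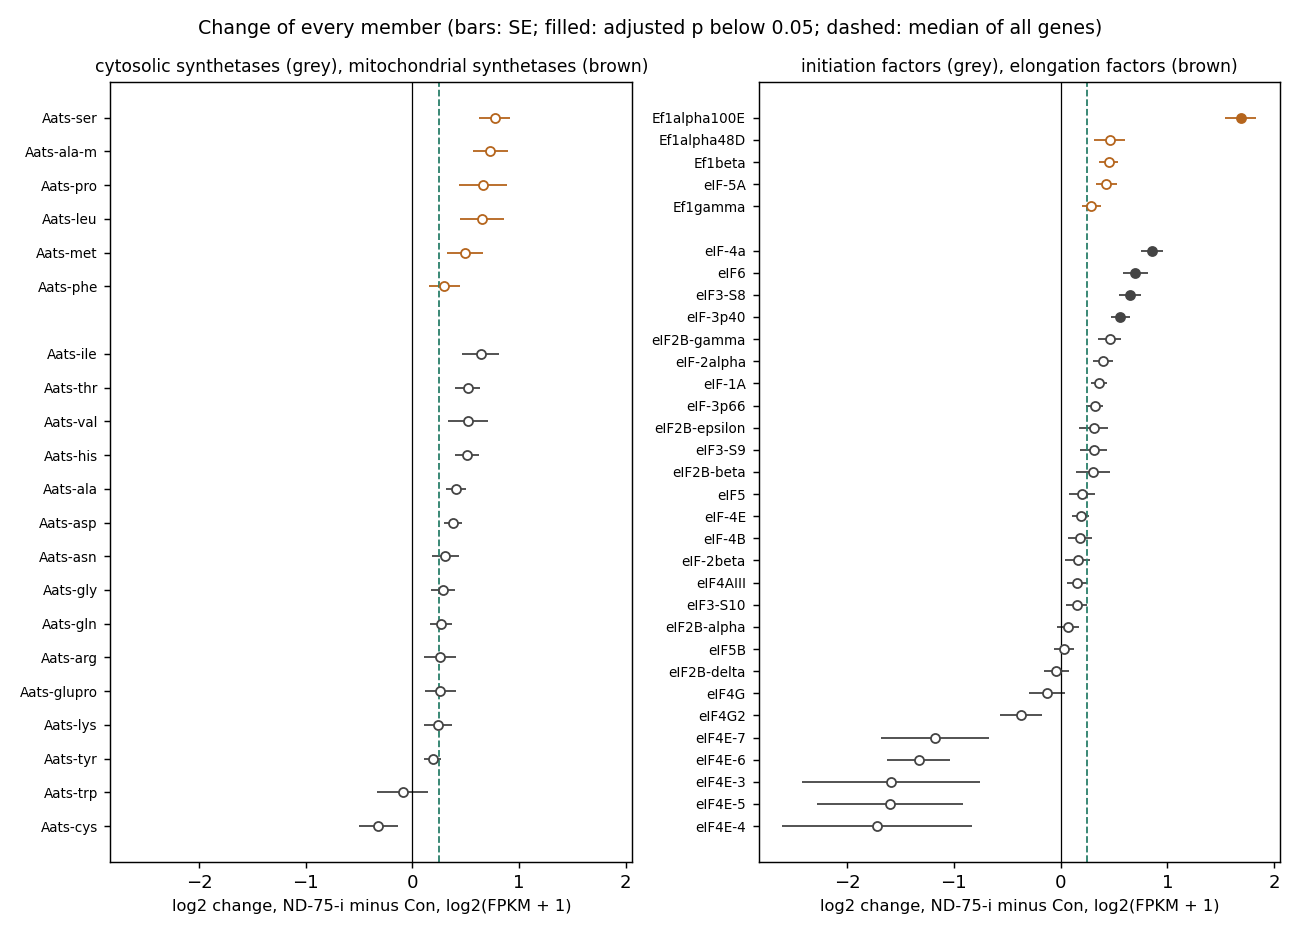
Log2 change (ND-75-i minus Con, log2(FPKM + 1) scale, horizontal axis) of each of the 53 members with its standard error, synthetases on the left and factors on the right, each coloured by class. Filled points passed an adjusted p of 0.05 and the dashed line is the median of all genes tested, 0.25. Ef1alpha100E stands at 1.69, the mitochondrial synthetases between 0.30 and 0.77, and the 5 numbered eIF4E paralogs between -1.72 and -1.18 with wide errors.

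Of the 4 elongation factors named Ef1, 3 were abundant, and the largest rise among all members was that of the scarce one, Ef1alpha100E. Ef1alpha100E (chromosome 3R, 27564190 to 27569028), the second of the eEF1A genes, was at 12.3 and 13.2 FPKM in the Con libraries and 48.3 and 38.9 FPKM in the ND-75-i libraries. Both ND-75-i libraries lay far above both Con libraries. The log2 change was 1.69 (SE 0.146, adjusted p = 0.02), or 3.22-fold, and 1.41 after median-ratio rescaling (adjusted p = 0.025). With 1 library left out it ranged from 1.54 to 1.84, with adjusted p from 0.0512 to 0.142. The main eEF1A gene, Ef1alpha48D, was at 7145 and 7694 FPKM in the Con libraries and 10433 and 9951 FPKM in the ND-75-i libraries (log2 change 0.46, SE 0.143, adjusted p = 0.112). Ef1alpha48D was thus the most abundant member in all 4 libraries, and Ef1alpha100E amounted to 0.172 per 100 of it in each Con library and to 0.463 and 0.391 per 100 in ND-75-i. The paralogs are closely related in sequence, and how fragments shared by them were divided is not given in the sources used here. The summed FPKM of 11 muscle markers was 131 and 127 in the Con libraries and 177 and 158 in the ND-75-i libraries, with myosin heavy chain, Mhc, at 1.03 and 1.17 against 2.58 and 1.67 FPKM. Of those markers limma called 0, with 7 of 11 above 0 in log2 change. Before adjustment 3 were higher (unadjusted p under 0.05), against 29.4% of all genes. The part of these markers in the Ef1alpha100E result was not tested.

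The exchange factor subunits of eEF1B showed smaller differences. Ef1beta, a catalytic subunit, was at 1033 and 977 FPKM in the Con libraries and 1372 and 1379 FPKM in the ND-75-i libraries (log2 change 0.45, SE 0.0918, adjusted p = 0.0624). Ef1gamma, the structural subunit, was at 1217 and 1190 against 1440 and 1498 FPKM (a log2 change of 0.29, SE 0.092, adjusted p = 0.117). The groups of both genes were separate, and their bounds did not overlap. After median-ratio rescaling the changes were 0.16 for Ef1beta and -0.00 for Ef1gamma. The other exchange subunit, eEF1delta, which is no member by name, was at 427 and 338 FPKM in the Con libraries and 321 and 347 FPKM in the ND-75-i libraries (-0.19, adjusted p = 0.37), so its groups overlapped. eIF-5A, named as an initiation factor but known to act in elongation at difficult peptide bonds and listed today as eEF5, was at 1598 and 1614 against 2137 and 2205 FPKM (a log2 change of 0.43, SE 0.0963, adjusted p = 0.0696). Ef2b, the translocase eEF2, rose from 1511 and 1516 FPKM to 2287 and 2256 FPKM (a log2 change of 0.59, SE 0.0949, adjusted p = 0.0449) but was not called once the libraries were rescaled by median ratios (0.29, adjusted p = 0.152). Among the 8 elongation and termination genes outside the naming rule 2 rose and 0 fell, beside 7.76% of all genes called higher. The 2 were Ef2b and the ribosome recycling gene pix (0.61, SE 0.0761, adjusted p = 0.0321). The median log2 change of the 8 was 0.07. The release factor genes eRF1 (109 and 97.1 against 118 and 127 FPKM) and Elf, which encodes eRF3 (71.8 and 58.1 against 55.3 and 66.9 FPKM), did not pass. With limma 0 of the 8 were called after median-ratio rescaling.

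**Figure D2:**
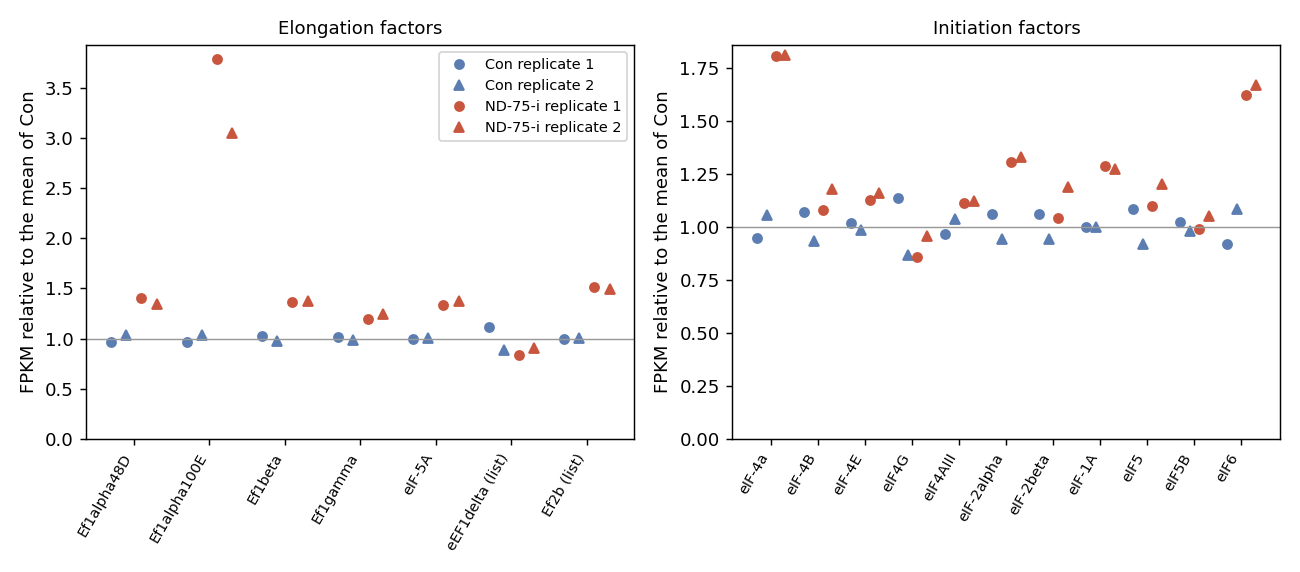
FPKM of each library relative to the mean of the Con libraries of that gene, for elongation factors (left, with the non-member genes eEF1delta and Ef2b marked as list) and for initiation factors (right); circles are replicate 1 and triangles replicate 2, blue Con and red ND-75-i. Ef1alpha100E, eIF-4a and eIF6 show both red points far above both blue points, while the groups of eIF4G, eIF5B, eIF-2beta and eEF1delta overlap.

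Among the factors that bind the cap, the helicase rose and the cap-binding protein and scaffold did not pass. eIF-4a (chromosome 2L, 5981759 to 5985561), which encodes the eIF4A helicase that unwinds the mRNA leader, went from 759 and 844 FPKM to 1448 and 1451 FPKM (a log2 change of 0.86, SE 0.102, adjusted p = 0.0294). It was not called after median-ratio rescaling, at 0.56 with an adjusted p of 0.0626, nor after quantile normalization, at 0.27 with an adjusted p of 0.151. eIF-4E, the cap-binding protein, was at 157 and 152 FPKM in the Con libraries and 174 and 179 FPKM in the ND-75-i libraries (0.19, adjusted p = 0.159, and -0.10 after median-ratio rescaling). eIF4G, the scaffold, was at 127 and 96.8 against 95.9 and 107 FPKM (log2 change -0.13, adjusted p = 0.576), and its groups overlapped. eIF-4E amounted to 20.7 and 18.0 per 100 of eIF-4a in the Con libraries and to 12.0 and 12.4 per 100 in ND-75-i, and eIF4G to 16.8 and 11.5 against 6.62 and 7.40 per 100. The groups did not overlap in either ratio, but eIF-4a was itself called higher, so genes that rose less have a lower ratio by construction. The ratios thus add no separate result on eIF-4E or eIF4G. A single scaling factor per library would leave both ratios as they are. Quantile normalization does not: there the log2 changes were 0.27 for eIF-4a and -0.20 for eIF-4E, against 0.86 and 0.19. eIF-4B, which stimulates the helicase, was at 131 and 114 against 132 and 144 FPKM (log2 change 0.18, adjusted p = 0.281). eIF4AIII, the helicase of the exon junction complex rather than of initiation, was at 29.4 and 31.5 against 33.8 and 34.1 FPKM (log2 change 0.15, adjusted p = 0.277).

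Subunits of eIF3 were called in several cases. Of 5 member subunits, 2 rose and 0 fell: eIF3-S8, the core subunit eIF3c, from 90.8 and 103 FPKM to 157 and 148 FPKM (a log2 change of 0.65, SE 0.102, adjusted p = 0.0429), and eIF-3p40, subunit eIF3h, from 191 and 205 FPKM to 301 and 286 FPKM (a log2 change of 0.56, SE 0.0865, adjusted p = 0.0421). The locus of eIF-3p40 overlaps CG14040, and the strand setting of the counting is not given in the sources used here. eIF-3p66, the cap-contacting subunit eIF3d1, was at 110 and 115 against 144 and 138 FPKM (log2 change 0.32, adjusted p = 0.0834), eIF3-S9, subunit eIF3b, at 162 and 187 against 231 and 201 FPKM (log2 change 0.31, adjusted p = 0.16), and eIF3-S10, subunit eIF3a, at 90.3 and 94.9 against 109 and 96.6 FPKM (log2 change 0.15, adjusted p = 0.314). Both ND-75-i libraries lay above both Con libraries for each of the 5, against 53.7% of all genes. Of the 8 subunits of the complex that carry other names, 5 rose, among them CG9769 (eIF3f1), from 184 and 198 FPKM to 308 and 318 FPKM (a log2 change of 0.71, SE 0.0843, adjusted p = 0.0296), Trip1 (eIF3i; 0.70, SE 0.0939, adjusted p = 0.0346) and Int6 (eIF3e; 0.78, SE 0.112, adjusted p = 0.0385). Over the 13 subunits 7 rose, with a median log2 change of 0.56, beside 0.25 for all genes and 7.76% of genes called higher. The set leaves out the paralogs eIF3d2, eIF3f2 and eIF3g2, whose log2 changes were -1.37, -1.06 and -0.83. None of these paralogs passed. After median-ratio rescaling limma called 0 of the 13, with changes from -0.14 to 0.49 and a median of 0.27. The lowest changes among the 13 were those of eIF3a and of Adam, the loosely bound subunit eIF3j, at 112 and 83.4 against 104 and 115 FPKM.

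**Figure D3:**
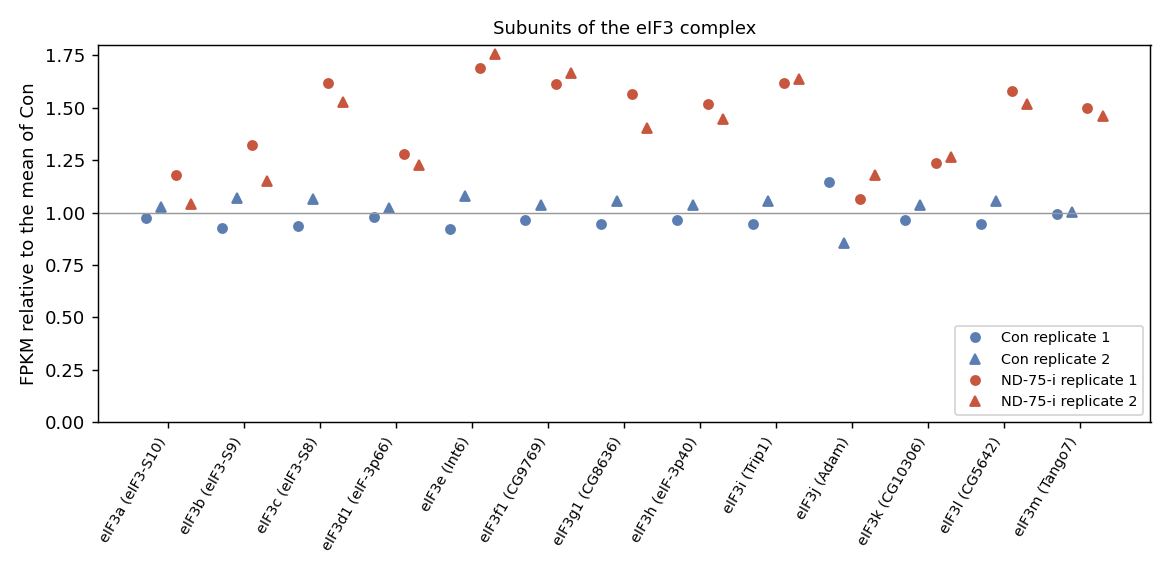
FPKM of each library relative to the mean of the Con libraries for 13 subunits of eIF3, with current names and, in brackets, the symbols of the tables; circles are replicate 1, triangles replicate 2, blue Con and red ND-75-i. eIF3c, e, f1, h, i, l and m, which passed the test, lie at 1.44 to 1.75 in ND-75-i, and eIF3a and eIF3j lie closest to Con.

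The remaining initiation factors were mostly near the shift of all genes. eIF6, which keeps the large ribosomal subunit from joining too early and serves in its biogenesis, rose from 24.0 and 28.3 FPKM to 42.4 and 43.6 FPKM (a log2 change of 0.70, SE 0.119, adjusted p = 0.0496). The call lay at the threshold and did not hold once the libraries were rescaled by median ratios (0.42, adjusted p = 0.109), and its locus overlaps ytr. eIF-1A, of start codon scanning, was at 258 and 258 FPKM in the Con libraries and 332 and 328 FPKM in the ND-75-i libraries (0.36, SE 0.075, adjusted p = 0.0655). The subunits of eIF2 were at 94.8 and 84.3 against 117 and 119 FPKM for eIF-2alpha, the target of stress kinases (0.40, adjusted p = 0.0778), and at 167 and 148 against 164 and 187 FPKM for eIF-2beta (0.16, adjusted p = 0.348). Groups were separate for eIF-2alpha and overlapped for eIF-2beta. eIF5, the GTPase activator of eIF2, was at 96.5 and 81.8 against 97.9 and 107 FPKM (log2 change 0.20, adjusted p = 0.267). eIF5B, of ribosomal subunit joining, was at 34.2 and 32.9 against 33.2 and 35.3 FPKM (log2 change 0.03, adjusted p = 0.833).

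All 5 subunits of eIF2B, the exchange factor that reactivates eIF2, were members, and limma called 0 of them. Before adjustment 1 was higher and 0 lower (unadjusted p under 0.05), against 29.4% and 7.7% of all genes. The highest change was that of eIF2B-gamma, at 14.8 and 13.7 FPKM in the Con libraries and 20.0 and 19.9 FPKM in the ND-75-i libraries (log2 change 0.46, adjusted p = 0.0748). eIF2B-epsilon, the catalytic subunit, was at 13.2 and 11.8 against 14.7 and 16.8 FPKM, eIF2B-beta at 29.5 and 24.3 against 30.4 and 36.5 FPKM, and eIF2B-alpha at 22.2 and 21.5 against 22.3 and 23.7 FPKM. eIF2B-delta was at 23.5 and 20.7 against 20.8 and 22.1 FPKM, and its groups alone overlapped. The median of the 5 was 0.30, and 0.02 after median-ratio rescaling. The locus of each of the 5 overlaps 1 other gene.

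The cytosolic synthetases were close to the shift of all genes. By name 20 synthetases were cytosolic and 1, Aats-ala-m, mitochondrial. By current symbols 5 of the 20, namely Aats-phe, Aats-pro, Aats-leu, Aats-met and Aats-ser, are the mitochondrial enzymes PheRS-m, ProRS-m, LeuRS-m, MetRS-m and SerRS-m, a reassignment made after the tables were seen. With limma 0 of the 15 cytosolic synthetases were called, or 0 of the 20 by name, with 5 and 9 higher and 0 lower before adjustment (unadjusted p under 0.05). At that threshold 29.4% of all genes were higher and 7.7% lower. The median log2 change of the 15 was 0.29 and of the 20 was 0.35, beside 0.25 for all genes, and 0.01 and 0.06 after median-ratio rescaling. Their FPKM in Con ranged from 13.5 to 140.

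The most abundant was Aats-asp, the aspartyl-tRNA synthetase, at 145 and 136 FPKM in the Con libraries and 178 and 188 FPKM in the ND-75-i libraries (log2 change 0.38, SE 0.0851, adjusted p = 0.0707). Aats-thr followed at 63.9 and 53.6 against 84.7 and 84.1 FPKM (log2 change 0.52, adjusted p = 0.0716), then Aats-tyr at 56.7 and 55.0 against 64.4 and 63.4 FPKM (log2 change 0.19, adjusted p = 0.165). The Con levels of Aats-thr and Aats-tyr overlapped. The largest change of a cytosolic enzyme was that of Aats-ile, at 26.1 and 21.1 FPKM in the Con libraries and 33.2 and 41.7 FPKM in the ND-75-i libraries (0.64, SE 0.176, adjusted p = 0.0942). Aats-val was at 15.4 and 11.7 against 18.0 and 21.4 FPKM (log2 change 0.52, adjusted p = 0.137), Aats-his at 33.8 and 30.0 against 43.5 and 48.0 FPKM (log2 change 0.51, adjusted p = 0.0716) and Aats-ala at 37.1 and 36.3 against 47.4 and 51.0 FPKM (log2 change 0.41, adjusted p = 0.0692). Groups were separate for all of these.

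At the other end, Aats-cys, the cysteinyl-tRNA synthetase, was at 20.0 and 15.0 FPKM in the Con libraries and 12.9 and 14.5 FPKM in the ND-75-i libraries (log2 change -0.32, SE 0.182, adjusted p = 0.249). It was the only synthetase with both ND-75-i libraries below both Con libraries, by a margin under the spread of the Con replicates. With 1 library left out its change ranged from -0.51 to -0.12, and its locus overlaps Ext2 and CG10731. Aats-trp was at 32.2 and 20.8 against 23.3 and 25.3 FPKM (log2 change -0.09, adjusted p = 0.791), with overlapping groups. Aats-lys, which serves cytosol and mitochondria, was at 48.9 and 46.1 against 51.2 and 62.0 FPKM (log2 change 0.24, from 0.11 to 0.38 with 1 library left out). Aats-arg was at 27.4 and 22.2 against 28.0 and 31.6 FPKM (log2 change 0.26), and Aats-glupro, the fused enzyme for glutamate and proline, at 25.0 and 20.2 against 26.2 and 28.2 FPKM (log2 change 0.26). The other 3, Aats-asn, Aats-gln and Aats-gly, had changes from 0.27 to 0.31. None of these passed by limma. The 8 cytosolic synthetases and scaffold proteins of the synthetase complex with other names had a median of 0.25, and limma called 0. Before adjustment 3 of the 8 were higher (unadjusted p under 0.05), against 29.4% of all genes. The leucyl enzyme CG33123 was at 14.2 and 11.8 against 17.0 and 20.0 FPKM. The scaffold AIMP2, listed as CG12304, was at 46.5 and 45.0 against 57.4 and 62.1 FPKM (log2 change 0.38, adjusted p = 0.0775).

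**Figure D4:**
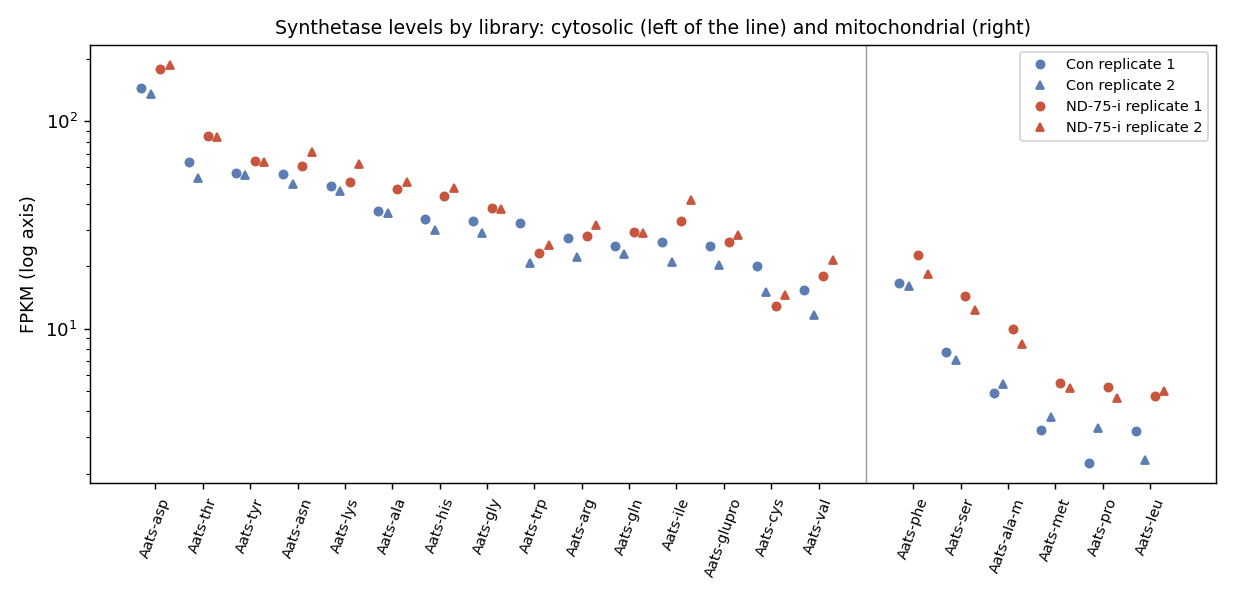
FPKM (log axis) of the 21 synthetases in each library, 15 cytosolic on the left and 6 mitochondrial by current symbol on the right, each sorted by level in Con; circles are replicate 1, triangles replicate 2, blue Con and red ND-75-i. Mitochondrial enzymes lie lower, from 2.76 to 16.4 FPKM on average in Con, and for each of the 6 both red points lie above both blue points.

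The mitochondrial synthetases were listed at lower FPKM than most cytosolic ones, and limma called 0 of them. Aats-ala-m, the mitochondrial alanyl-tRNA synthetase, was at 4.91 and 5.44 FPKM in the Con libraries and 10.0 and 8.48 FPKM in the ND-75-i libraries (log2 change 0.73, SE 0.162, adjusted p = 0.0698). Aats-ser was at 7.75 and 7.06 against 14.4 and 12.3 FPKM (a log2 change of 0.77, SE 0.149, adjusted p = 0.0587), the largest change of any synthetase. Both sets of libraries were well apart for these genes. Aats-pro was at 2.24 and 3.33 against 5.25 and 4.61 FPKM (log2 change 0.66, adjusted p = 0.128), Aats-leu at 3.21 and 2.32 against 4.73 and 5.01 FPKM (log2 change 0.65, adjusted p = 0.114) and Aats-met at 3.26 and 3.77 against 5.50 and 5.15 FPKM (log2 change 0.49, adjusted p = 0.129). Aats-phe, the most abundant, was at 16.7 and 16.0 against 22.6 and 18.3 FPKM (log2 change 0.30, adjusted p = 0.201). Of the 6, 5 were higher and 0 lower before adjustment (unadjusted p under 0.05), against 29.4% and 7.7% of all genes. Both ND-75-i libraries lay above both Con libraries for all 6, against 53.7% of all genes. The loci of Aats-ser, Aats-ala-m and Aats-pro overlap other genes.

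The median log2 change of the 6 mitochondrial enzymes was 0.66, beside 0.29 for the 15 cytosolic ones and 0.25 for all genes. For 71 mitochondrial ribosomal protein genes it was 0.82, and 31 of them rose, against 7.76% of all genes. After median-ratio rescaling the medians were 0.43, 0.01, -0.01 and 0.54. By name alone the difference between Aats-ala-m and the median of the 20 others was 0.38. It was 0.20 without ND-75-i replicate 1, 0.26 without Con replicate 1 and 0.20 with a pseudocount of 5. The synthetases are not replicates of a condition, so the difference between the classes carries no p-value. The 10 mitochondrial synthetase genes with other names had a lower median, 0.42, with 9 changes above 0 and 1 below. With limma 0 of them were called, with 5 higher before adjustment (unadjusted p under 0.05), against 29.4% of all genes. They ranged from CG6796 (AsnRS-m), at 3.64 and 3.57 FPKM in the Con libraries and 6.72 and 7.18 FPKM in the ND-75-i libraries (0.79, adjusted p = 0.0587), and CG31739 (AspRS-m), at 11.0 and 11.4 against 17.1 and 16.2 FPKM (log2 change 0.53, adjusted p = 0.0663), to CG5660 (ValRS-m), at 3.36 and 2.04 against 2.85 and 1.55 FPKM.

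Factors of mitochondrial translation showed calls where the synthetases did not. Of 11 tested, 3 rose and 0 fell, beside 7.76% of all genes called higher, with a median log2 change of 0.71. EfTuM, the mitochondrial EF-Tu that delivers aminoacyl-tRNA, rose from 31.1 and 33.9 FPKM to 78.5 and 68.4 FPKM (a log2 change of 1.15, SE 0.115, adjusted p = 0.0231), and CG4567, the mitochondrial translocase mEFG1, from 3.46 and 3.64 FPKM to 11.4 and 10.4 FPKM (a log2 change of 1.39, SE 0.147, adjusted p = 0.0245). Both were also called by limma after median-ratio rescaling (adjusted p = 0.0314 and 0.0344), where 3.47% of all genes were called higher. CG33649, the GatC subunit of the enzyme that makes glutaminyl-tRNA in mitochondria, rose from 12.8 and 14.2 FPKM to 22.3 and 22.4 FPKM (a log2 change of 0.69, adjusted p = 0.045), a call lost after that rescaling (adjusted p = 0.109). The GatA gene was at 3.71 and 4.86 against 8.51 and 8.16 FPKM (log2 change 0.83, adjusted p = 0.0687). Cytosolic elongation factors can be set beside these: the median of the 4 named Ef1 was 0.46, and 88 cytoplasmic ribosomal protein genes had a median of 0.56.

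By name, initiation factors had a lower median change than elongation factors. Outside the naming rule the order was reversed, with a median of 0.32 for 25 initiation proteins and 0.07 for 8 elongation and termination genes. The 28 genes named eIF had a median log2 change of 0.18 and the 4 Ef1 genes one of 0.46, a difference of -0.27 before rounding. Of these genes 4 of 28 and 1 of 4 rose, against 7.76% of all genes. After median-ratio rescaling the medians were -0.11 and 0.16, and after quantile normalization -0.17 and -0.05. The genes of a class are not replicates, so this difference carries no p-value. Without the 5 numbered eIF4E paralogs the other 23 initiation factors had a median of 0.30 and the difference was -0.15, a calculation added after the data were seen. Of the 28, 18 (64.3%) had both ND-75-i libraries above both Con libraries, against 53.7% of all genes, and 6 (21.4%) below, against 21.7%. The 5 numbered eIF4E paralogs were among those 6. All 4 Ef1 genes were above.

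The numbered eIF4E paralogs were the members with the lowest changes. eIF4E-3, which in the fly is a testis form needed in spermatocytes, was at 21.8 and 15.4 FPKM in the Con libraries and 13.1 and 1.93 FPKM in the ND-75-i libraries (log2 change -1.59, SE 0.831, adjusted p = 0.219). eIF4E-4 was at 14.1 and 10.1 against 8.12 and 0.701 FPKM (log2 change -1.72, adjusted p = 0.216), eIF4E-5 at 14.5 and 10.4 against 7.30 and 1.33 FPKM (log2 change -1.60, adjusted p = 0.169) and eIF4E-7 at 5.74 and 3.62 against 2.75 and 0.617 FPKM (log2 change -1.18, adjusted p = 0.169). In each of these 4 the ND-75-i replicate 2 library was far below the other 3. eIF4E-6 was at 3.29 and 2.02 against 0.561 and 0.309 FPKM (a log2 change of -1.33, SE 0.294, adjusted p = 0.0694). It passed the filter on low values through the Con libraries only, and its widest upper bound exceeded the FPKM by 199%. Of the other 4 limma called 0, and 0 were lower before adjustment. Both ND-75-i libraries lay below both Con libraries in each of these 4, against 21.7% of all genes. eIF4G2, the scaffold paralog of spermatogenesis, was at 11.1 and 12.3 against 10.3 and 7.53 FPKM (log2 change -0.37, adjusted p = 0.217, from -0.58 to -0.17 with 1 library left out). Without ND-75-i replicate 2 the changes of eIF4E-3, eIF4E-4, eIF4E-5 and eIF4E-7 were -0.46, -0.51, -0.68 and -0.57, and without ND-75-i replicate 1 they were -2.72, -2.93, -2.51 and -1.79.

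Markers of testis and male germline moved with these paralogs. The summed FPKM of 19 such genes was 432 and 335 in the Con libraries and 259 and 56.2 in the ND-75-i libraries. Of the 17 that were tested, 16 had a log2 change below 0, and the median was -1.38. By limma 0 of the 17 were called. Before adjustment 5, aly among them, were lower (unadjusted p under 0.05), against 7.7% of all genes. Among the 16, aly, at 1.43 and 1.34 against 0.572 and 0.175 FPKM, passed the filter on low values through the Con libraries only. Its direction was thus fixed by the filter. The testis tubulin betaTub85D was at 39.8 and 37.8 against 18.3 and 2.78 FPKM, and the sperm protein gene Mst87F at 76.3 and 55.6 against 50.0 and 7.86 FPKM. None of the markers was at 0. The 5 paralogs summed to 59.4 and 41.6 FPKM in Con and to 31.8 and 4.89 FPKM in ND-75-i, or 13.8, 12.4, 12.3 and 8.70 per 100 of the testis markers in the 2 Con libraries and then the 2 ND-75-i libraries, in replicate order. Their sum was 37.8 and 27.4 per 100 of eIF-4E in Con and 18.3 and 2.72 per 100 in ND-75-i. The labels give no sex for the larvae, and the part of testis RNA in these values was not tested. Paralogs of other factors outside the naming rule lay low in the same library, such as CG4810 (eIF3d2), at 3.68 and 3.76 against 1.81 and 0.178 FPKM, CG8335 (eIF3f2), at 6.92 and 4.28 against 3.87 and 0.965 FPKM, and CG1340 (eIF4H2), at 9.30 and 6.97 against 5.22 and 0.571 FPKM. These were named after their values were seen, and none passed.

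**Figure D5:**
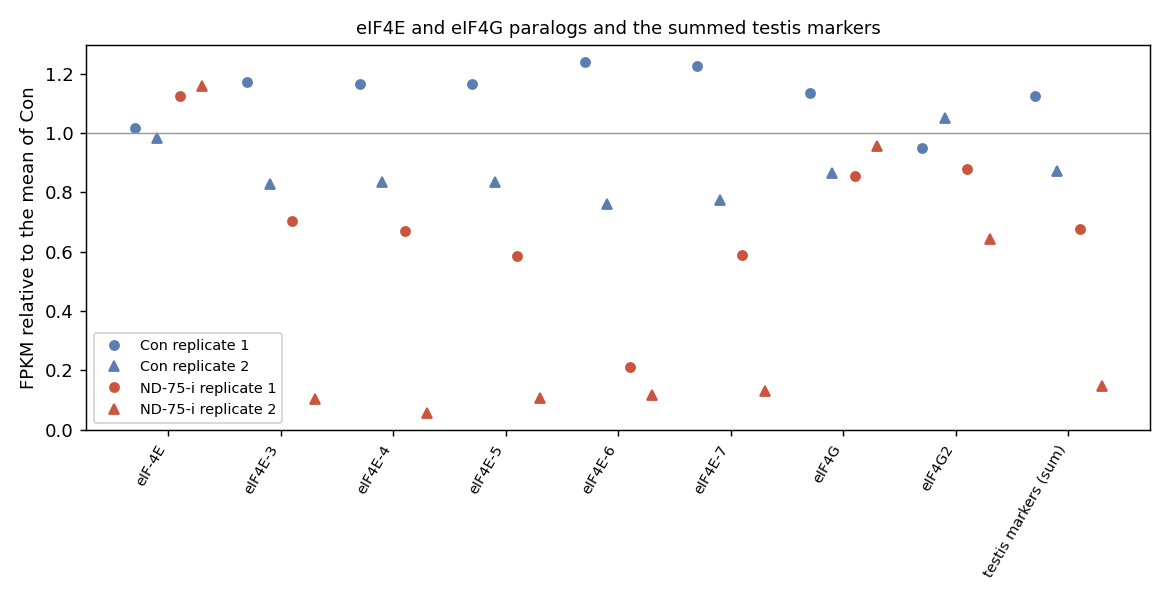
FPKM of each library relative to the mean of the Con libraries for eIF-4E, its 5 numbered paralogs, eIF4G, eIF4G2 and the sum of 19 testis markers; circles are replicate 1, triangles replicate 2, blue Con and red ND-75-i. The numbered paralogs follow the order of the testis markers over the 4 libraries, with ND-75-i replicate 2 lowest, while eIF-4E does not.

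Of 25 initiation proteins outside the naming rule 6 rose, beside 7.76% of all genes. They were 5 subunits of eIF3 and CG10990, which encodes Pdcd4, an inhibitor of eIF4A, from 69.8 and 80.8 FPKM to 129 and 118 FPKM (a log2 change of 0.71, SE 0.116, adjusted p = 0.0459). Pdcd4 was not called once the libraries were rescaled by median ratios (adjusted p = 0.0827), and neither was any other of the 25. Thor, the eIF4E inhibitor 4E-BP, was at 662 and 1147 against 1313 and 1411 FPKM (log2 change 0.64, adjusted p = 0.186), with the Con replicates far apart, and cup, an eIF4E-binding repressor known from oogenesis, at 10.1 and 9.07 against 6.16 and 5.16 FPKM (log2 change -0.67, adjusted p = 0.0769). Of 13 kinases and other regulators of initiation limma called 0, and the median was 0.38, or 0.10 after median-ratio rescaling. Before adjustment 5 of the 13 were higher and 0 lower (unadjusted p under 0.05), against 29.4% and 7.7% of all genes. Lk6, a kinase of eIF4E, was at 78.6 and 87.4 against 117 and 113 FPKM (log2 change 0.47, adjusted p = 0.0619), S6k, the kinase of the small ribosomal subunit, at 22.7 and 21.7 against 30.8 and 28.8 FPKM (log2 change 0.41, adjusted p = 0.0781), and dm, which encodes Myc, at 8.23 and 9.14 against 12.4 and 16.1 FPKM (log2 change 0.65, adjusted p = 0.0954). PEK, an eIF2alpha kinase of the endoplasmic reticulum, was at 9.88 and 10.7 against 13.9 and 13.5 FPKM, Gcn2, the kinase that senses uncharged tRNA, at 4.41 and 5.13 against 6.43 and 5.60 FPKM, and crc, which encodes the ATF4 transcription factor, at 396 and 384 against 414 and 432 FPKM (log2 change 0.12, adjusted p = 0.312). The groups of PEK, Gcn2 and crc did not overlap, but none of the differences passed.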

How the data were processed

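Fat body RNA of 2 Con and 2 ND-75-i samples was sequenced, and the authors deposited FPKM with confidence bounds and a status flag for 14146 lines per library, per the file headers. The submitters' processing notes name Bowtie 0.12.2. Which program, annotation, strand setting and build gave the FPKM was not given in the sources used here. Coordinate starts of the tables had 1 added. Of 93 symbols on more than 1 line the most abundant line was kept. Current symbols came from RefSeq (Release 6) and were used for names only; all 53 members matched.

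Genes with status OK in all 4 libraries and at least 1 FPKM in at least 2 libraries were tested with limma 3.58.1 (R 4.3.3) on log2(FPKM + 1), with an intensity trend, group as the only term, two-sided, Benjamini-Hochberg adjustment over 10023 genes and a threshold of 0.05. Residual degrees of freedom were 2 and prior ones 1.95. FPKM are not counts, so no count test was run. Replicates are not stated to be separate crosses, so p-values measure only how far these samples differ, and that may be technical. Precision differed by gene: the widest deposited upper bound of a member over the 4 libraries exceeded the FPKM by a median of 7.51%. The loci of 17 members overlap other genes, whose reads cannot be told apart without strand.

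Values in every library were given for elongation factors, mitochondrial synthetases, called members, the extremes and the most abundant of the other classes, paralogs of eIF4E and eIF4G, and up to 4 genes by smallest p from each related list. The members, lists and tests were chosen with earlier results of these data known. Alternatives changed the scaling (median ratio or quantile), the pseudocount (0.1 or 5), the filter (none, or a mean FPKM of 5 or more), the intensity trend (none) and the design (replicate number as a block, or a library left out). Classes by current symbol, and a median without the numbered eIF4E paralogs, were added after the data were seen. The set of 13 eIF3 subunits was not part of the plan. Tables were made in pandas 2.3.3 with NumPy 2.4.6 under Python 3.11.15, and plots in matplotlib 3.10.9.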

Additional observations from a re-analysis of the deposited data

How the results depend on the processing

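The 5 members called higher became 1 with median-ratio and 1 with quantile scaling, 3 with no low filter, 10 with a mean of at least 5 FPKM, 2 with the replicate block, 1 without the intensity trend, and 0 to 0 with 1 library left out, where 0 to 2 of all 10023 genes were called higher, so those fits say nothing of stability. The 4 initiation factors became 0, 0, 2, 1 and 0 under median-ratio, quantile, no low filter, replicate block and no trend, 6 of 26 with a mean of at least 5 FPKM, and 0 to 0 with 1 library left out. The mean filter, which tests fewer genes, gave 3 elongation factors in place of 1 and 1 cytosolic synthetase by name, Aats-ser, in place of 0. It also called 1136 of 6651 genes higher, against 778 of 10023 in the main fit. The larger member counts there are thus not read as a result about the members. With no low filter 580 of 12853 genes were called higher, and without the trend 427 of 10023. Deviations of same-numbered samples correlated at 0.357 over only 2 pairs, so the numbers are not taken as pairing; the block gave 792 genes higher and 198 lower, against 778 and 109. The initiation minus elongation median of -0.27 was -0.12 after quantile normalization and -0.15 without the numbered eIF4E paralogs. Rescaling reversed uncalled members only. Median-ratio gave eIF5B -0.26, eIF2B-alpha -0.21, eIF3-S10 -0.14, eIF-2beta -0.13, eIF4AIII -0.13, eIF-4B -0.11, eIF-4E -0.10, Aats-tyr -0.10, eIF5 -0.09, Aats-lys -0.04, Aats-glupro -0.02, Aats-arg -0.02, Aats-gln -0.01 and Ef1gamma -0.00. Quantile gave Ef1gamma -0.28, eIF5B -0.23, eIF-2beta -0.22, eIF-4E -0.20, eIF3-S10 -0.20, eIF2B-alpha -0.19, Ef1beta -0.17, eIF5 -0.17, eIF-4B -0.16, eIF4AIII -0.11, eIF-5A -0.09, eIF-1A -0.09, eIF3-S9 -0.07, Aats-tyr -0.05, Aats-lys -0.01, eIF-3p66 -0.01 and Aats-asp -0.00. With 1 library left out, eIF2B-delta ranged from -0.13 to 0.05, eIF5B from -0.02 to 0.07, eIF4G from -0.32 to 0.07 and Aats-trp from -0.39 to 0.22. The cause of these shifts was not tested. With 2 samples a group and no counts, depth limits the low genes most: the mitochondrial synthetases and numbered eIF4E paralogs.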
